A study of Mus musculus with 4 samples.

Results

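The genes described here load peptides onto MHC class II molecules or control that step. They are H2-Aa, H2-Ab1 and H2-Eb1 (chains of I-A and I-E), H2-DMa and H2-DMb2 (chains of DM), H2-Oa and H2-Ob (chains of DO), Cd74 (the invariant chain) and Ciita (the class II transactivator). A probe set was included when the platform annotation gave it the symbol of 1 of these 9 genes and no other. That rule gave 18 of the 45037 probe sets tested, and 9 of the 17097 named genes. All 9 Entrez identifiers led to the same symbol in the mouse gene table (GRCm38.p6), with Cd74 on chromosome 18, Ciita on chromosome 16 and the other genes on chromosome 17.

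Total RNA came from 4T1Ch9 tumors, a cherry-tagged triple-negative mammary carcinoma line of Balb/c origin that was injected into the mammary fat pad of young adult female wild-type Balb/c mice (50000 cells). Tumors grew for 10 days before 7 days of daily oral dosing. The MEKi group received trametinib, a drug that blocks the kinases MEK1 and MEK2, at 1 mg/kg, and the vehicle group received the suspension agent (PEG and solutol) alone. Each group has 2 arrays of the Affymetrix Mouse 430PM design, and whether they came from separate mice is not stated. The spread behind each p-value is that between arrays of the same label, with information shared over all probe sets. What part of that spread is technical is not known. Both groups carry the same tumor line in mice with an intact immune system, and each array reads the RNA of all cells in the tissue.

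Class II molecules present peptides from endosomes to CD4+ T cells. B cells, dendritic cells and macrophages make them constitutively or on activation, and many other cells do so after interferon-γ. The invariant chain escorts newly made αβ pairs to the endosome, where it is cut down to a fragment. DM exchanges that fragment for peptide, and DO, made mainly by B cells and some dendritic cells, binds DM and restrains it. Ciita does not bind DNA itself but is recruited to a protein complex on the X and Y boxes that lie before most class II genes.

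Arrays with the same label were not the most alike. Over all 45037 probe sets (no independent replicates), MEKi 1 and vehicle 2 had a Pearson's r of 0.992 and MEKi 2 and vehicle 1 one of 0.978, whereas r was 0.927 for the MEKi pair and 0.959 for the vehicle pair. The study's own list for this comparison gives the class II genes a direction that these labels do not give. Whether the labels of a pair of arrays were exchanged was not tested. Every estimate, interval and count by label holds only for the labels as deposited. No label was changed, every array is named by its label, and values are given array by array so that they can be read without the grouping. Values are the deposited log2 expression, on which 1 unit is a doubling, and the 25th percentile of an array lay between 3.85 and 3.88, so readings near 4 are close to the floor.

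The shared control sequence of the family is shown first, since the genes that carry it differed widely in how far apart the arrays lay. Promoter windows from RefSeq (GRCm38.p6, 250 bases before to 50 after the start of the gene) matched 6 of the 9 genes. The stretches below run from 130 to 26 bases before the start site, 5′ to 3′ on the strand of the gene. They lie at chr17:34287849-34287953 on the minus strand for H2-Aa and, on the plus strand, at chr17:34305737-34305841 for H2-Eb1, chr17:34145119-34145223 for H2-DMb2, chr17:34092249-34092353 for H2-Oa and chr17:34238775-34238879 for H2-Ob. Capitals mark letters of the X box region (GCAAC or CNNATGATG) and of the Y box (TGATTGG). The reference is C57BL/6J and the tumors were of Balb/c origin, so single bases may differ.
H2-Aa: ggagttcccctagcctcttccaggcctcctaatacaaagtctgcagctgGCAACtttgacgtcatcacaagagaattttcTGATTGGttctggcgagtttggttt
H2-Eb1: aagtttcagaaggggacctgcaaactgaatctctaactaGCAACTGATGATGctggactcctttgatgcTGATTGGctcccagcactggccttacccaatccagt
H2-DMb2: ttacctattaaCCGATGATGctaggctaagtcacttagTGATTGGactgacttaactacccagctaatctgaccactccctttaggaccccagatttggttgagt
H2-Oa: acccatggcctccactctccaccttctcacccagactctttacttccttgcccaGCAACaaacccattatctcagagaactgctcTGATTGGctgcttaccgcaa
H2-Ob: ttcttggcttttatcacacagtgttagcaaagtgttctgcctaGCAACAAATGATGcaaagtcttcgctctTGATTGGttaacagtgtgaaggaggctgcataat

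TGATTGG was present once in each of these 5 windows. GCAAC began 31 bases before it in H2-Aa and H2-Oa, 30 bases before it in H2-Eb1 and 28 bases before it in H2-Ob. In H2-DMb2 the upstream element was CNNATGATG, which began 27 bases before TGATTGG. The longer motif also matched H2-Eb1 and H2-Ob, where it overlaps GCAAC by its first letter. Searched on both strands, TGATTGG occurred in 7.82% of 32851 promoter windows of this length, GCAAC at 15 to 45 bases before TGATTGG in 0.289%, and CNNATGATG in 2.75%. CNNATGATG lay 15 to 45 bases before TGATTGG in 4 windows (0.0122%), those of H2-Eb1, H2-DMb2, H2-Ob and H2-DMb1. Both windows of H2-DMa held no match to TGATTGG or CNNATGATG. The related genes H2-Eb2 and H2-DMb1 also had TGATTGG, with GCAAC 30 bases and CNNATGATG 27 bases before it, respectively. The motif letters were chosen with the sequences in view, and a match describes the letters only.

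The chains of DO set the 4 arrays furthest apart. H2-Ob, the β chain, read 11.18 in MEKi 1 and 4.23 in MEKi 2, against 4.02 in vehicle 1 and 11.08 in vehicle 2. It was high in 1 array of each label and near the floor in the other, so the groups overlapped. H2-Oa, the α chain, read 10.49 in MEKi 1 and 4.96 in MEKi 2, against 4.53 in vehicle 1 and 10.09 in vehicle 2. The same arrays were high for both chains, and the difference between MEKi 1 and MEKi 2 was 6.95 log2 units for H2-Ob and 5.52 for H2-Oa, each a lower bound because the low readings sit near the floor. In bulk tissue, fewer cells of a type and less RNA per cell cannot be told apart.

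A second, dimmer probe set of H2-Ob (1422201_PM_at) read 5.73 in MEKi 1 and 4.29 in MEKi 2, against 3.40 in vehicle 1 and 5.47 in vehicle 2. It was highest in the same arrays as the brighter probe set, over a range of 2.34 in place of 7.16. MEKi 2 lay below vehicle 1 in 15 of the 18 class II probe sets, and in 46.6% of all probe sets tested. The other 3 were those of H2-Oa and H2-Ob, where both readings sit near the floor and their order carries no information. The same holds for the Ciita probe set 1447075_PM_at, counted among the 15, at 3.85 in MEKi 2 and 4.21 in vehicle 1.

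By label, the limma estimate for H2-Ob was 0.16 log2 units (SE 3.63, adjusted p = 1), with a 95% interval from −10.20 to 10.51. The group means were 7.70 ± 4.92 (SD, n = 2) for MEKi and 7.55 ± 4.99 (SD, n = 2) for vehicle. For H2-Oa the estimate was 0.42 log2 units (SE 2.87, adjusted p = 1), with a 95% interval from −7.78 to 8.62. Neither gene passed the test, and the intervals leave room for large changes in either direction. Each sign rested on single arrays, as the H2-Ob value ran from −3.37 without vehicle 1 to 3.68 without vehicle 2.

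**Figure D1:**
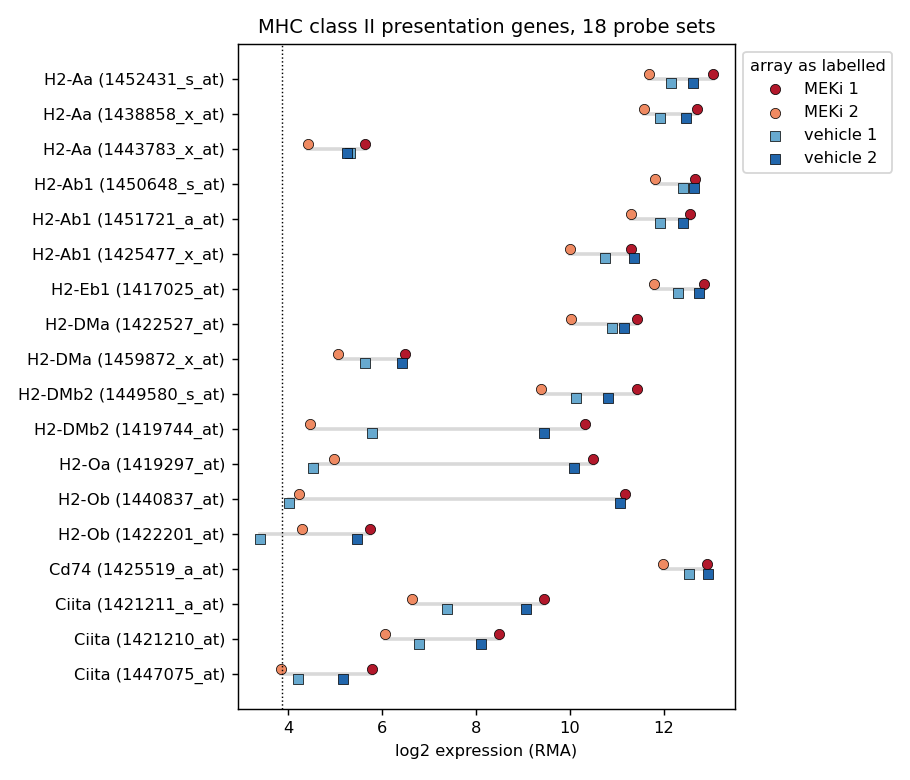
Log2 expression (RMA, horizontal axis) of the 18 class II probe sets, 1 point per array (MEKi circles, vehicle squares). Grey bars span the 4 arrays and the dotted line is the mean 25th percentile of the arrays. H2-Ob (1440837) spans 7.16 log2 units and Cd74 spans 0.96.

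DM was lower in MEKi 2 than in the other arrays, by an amount that depended on the probe set. H2-DMa, the α chain, read 11.42 in MEKi 1 and 10.01 in MEKi 2, against 10.89 in vehicle 1 and 11.14 in vehicle 2. Both vehicle arrays lay between the MEKi arrays. Its dimmer probe set (1459872_PM_x_at) had the same order of arrays and nearly the same range, 1.42 against 1.41.

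For H2-DMb2, a β chain of DM, the probe sets disagreed in size. The brightest (1449580_PM_s_at) read 11.42 in MEKi 1 and 9.37 in MEKi 2, against 10.12 in vehicle 1 and 10.80 in vehicle 2. The other (1419744_PM_at) read 10.32 in MEKi 1 and 4.46 in MEKi 2, against 5.78 in vehicle 1 and 9.45 in vehicle 2. Their order of arrays was the same, but the ranges were 2.04 and 5.85 log2 units. The wider range is a lower bound, since the MEKi 2 reading of 4.46 sits near the floor. The suffix _s_at marks a probe set that can match transcripts of more than 1 gene, and H2-DMb1, a close paralog of H2-DMb2, ranged over 1.74 log2 units. Its values for H2-DMb2 are therefore uncertain. A further pair of probe sets, named H2-DMb2 by the study's table and unnamed in the platform annotation, are no members under the rule. They read 11.07 and 11.12 in MEKi 1 and 5.95 and 6.34 in MEKi 2, with ranges of 5.12 and 4.78, closer to the wider of the member probe sets.

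The difference between MEKi 1 and MEKi 2 was thus 1.41 log2 units for H2-DMa and 6.95 for H2-Ob. The difference between vehicle 2 and vehicle 1 was 0.26 for H2-DMa and 7.05 for H2-Ob. H2-DMa and H2-Ob were thus unequally far apart between arrays of the same label. This does not extend to every DM and DO chain. Between MEKi 1 and MEKi 2, the H2-DMb2 probe set 1419744_PM_at differed by 5.85 and H2-Oa by 5.52. Both are lower bounds, as their MEKi 2 readings sit near the floor. By label, H2-DMa differed by −0.30 on the log2 scale (SE 0.55, adjusted p = 1 by limma, 95% interval −1.86 to 1.26) and H2-DMb2 by −0.07 (SE 0.80, adjusted p = 1).

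Transcripts of the peptide-binding chains were high in all 4 arrays. H2-Aa, the α chain of I-A, read 13.04 in MEKi 1 and 11.68 in MEKi 2, against 12.16 in vehicle 1 and 12.63 in vehicle 2. H2-Ab1, the β chain of I-A, read 12.67 in MEKi 1 and 11.81 in MEKi 2, against 12.40 in vehicle 1 and 12.65 in vehicle 2. H2-Eb1, the β chain of I-E, read 12.86 in MEKi 1 and 11.78 in MEKi 2, against 12.30 in vehicle 1 and 12.75 in vehicle 2. MEKi 2 was lowest and MEKi 1 highest for all 3 genes, and both vehicle arrays lay between them.

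The highest reading of any array was between 13.99 and 14.14. The part of the upper limit of the arrays in these small ranges was not tested. The brightest probe sets of H2-Aa (1452431_PM_s_at) and H2-Ab1 (1450648_PM_s_at) carry the suffix _s_at too. Their values may therefore include transcripts of other genes. The dimmest probe set of H2-Ab1 (1425477_PM_x_at) had a range of 1.36 against 0.86 for the brightest, and the remaining one read 12.55 in MEKi 1 and 11.30 in MEKi 2. A faint H2-Aa probe set (1443783_PM_x_at) read 5.62 in MEKi 1 and 4.42 in MEKi 2, against 5.31 in vehicle 1 and 5.26 in vehicle 2, and was the 1 member probe set in which vehicle 1 lay above vehicle 2. The remaining H2-Aa probe set ranged over 1.13 log2 units, in the order of the brightest.

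By label the largest of these differences was that of H2-Ab1, at −0.28 (SE 0.36, adjusted p = 1 by limma, 95% interval −1.32 to 0.76). H2-Eb1 differed by −0.20 (SE 0.46, adjusted p = 1) and H2-Aa by −0.03 (SE 0.55, adjusted p = 1). The sign of H2-Aa, whose estimate was near 0, turned when arrays were centred on reference genes or on their median. The group means of H2-Ab1 were 12.24 ± 0.61 (SD, n = 2) for MEKi and 12.52 ± 0.18 (SD, n = 2) for vehicle, and the difference was smaller than the spread between the MEKi arrays.

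Cd74, the invariant chain, read 12.92 in MEKi 1 and 11.98 in MEKi 2, against 12.53 in vehicle 1 and 12.94 in vehicle 2. It followed the peptide-binding chains, except that vehicle 2 lay above MEKi 1, by 0.02 log2 units. Its log2 fold change by label was −0.28 (SE 0.41, adjusted p = 1 by limma, 95% interval −1.44 to 0.88).

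Ciita lay between the DO chains and the peptide-binding chains in how far it ranged. Its brightest probe set read 9.45 in MEKi 1 and 6.63 in MEKi 2, against 7.37 in vehicle 1 and 9.06 in vehicle 2. The other probe sets ranged over 2.44 and 1.93 log2 units against 2.82, in the same order of arrays. The low readings of the dimmest sit near the floor. By label its log2 fold change was −0.17 (SE 1.21, adjusted p = 1 by limma), with a 95% interval from −3.64 to 3.29, and 1 of its 3 probe sets had the opposite sign (0.13).

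**Figure D2:**
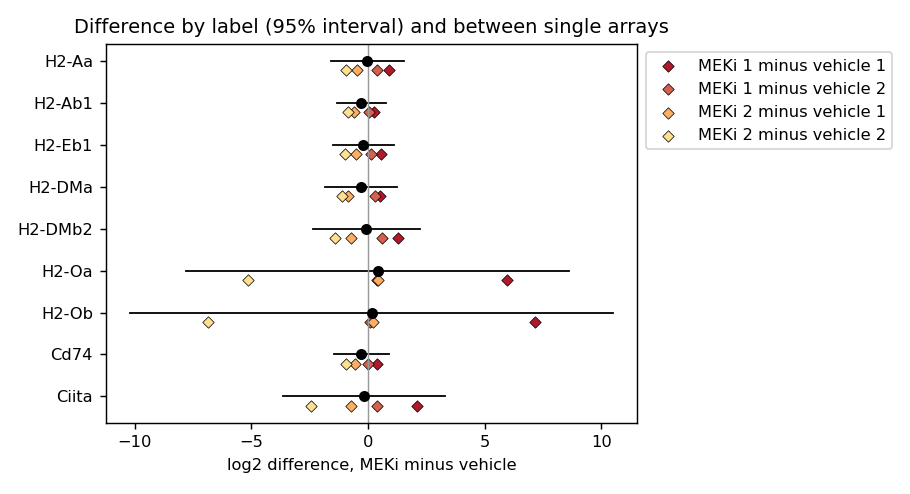
Log2 difference between MEKi and vehicle (horizontal axis) for the brightest probe set of each of the 9 genes. Black points and bars are the limma estimate by label with its 95% interval, and diamonds are the 4 differences between single arrays. The interval of H2-Ob runs from −10.20 to 10.51, while its diamonds lie at 7.16, 0.10, 0.21 and −6.85.

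Over the family, 0 of 18 probe sets were called by label, where a call needed limma's p under 0.05, adjusted p under 0.1 and more than a 1.5-fold change, and 0% of all 45037 were called. At an unadjusted p under 0.05 by limma there were 0 of the 18 and 406 of all probe sets. Both MEKi arrays lay above both vehicle arrays in 0 of the 18 (12.1% of all probe sets) and below them in 0 (9.86% of all). The median log2 fold change was −0.19 over the 18 and 0.01 over all probe sets, with 14 of the 18 below 0 and 4 above. It turned to 0.58 without MEKi 2 and to 0.21 without vehicle 2.

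The arrays were ordered alike in most of the family. MEKi 1 was highest in 16 of the 18 probe sets (26.8% of all) and MEKi 2 was lowest in 15 (27.1% of all), all but the DO probe sets. The full order MEKi 1, vehicle 2, vehicle 1, MEKi 2 was found in 12 of the 18 (9.84% of all). Both the 15 and the 12 include the Ciita probe set 1447075_PM_at, whose low readings sit near the floor. The range over the 4 arrays exceeded 1 log2 unit in 16 of the 18 (22% of all) and 5 log2 units in 3 (0.373% of all). Those 3 belonged to H2-Ob, H2-Oa and H2-DMb2. Members share the same tumors, and most share 1 chromosomal region, so they are not independent of each other.

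For the brightest probe sets, the difference between MEKi 1 and vehicle 1 was above 0 in 9 of 9 genes (median 0.88). Between MEKi 2 and vehicle 2 it was above 0 in 0 of 9 (median −1.13). Between MEKi 1 and vehicle 2 it was above 0 in 8 of 9 and between −0.02 and 0.61, and between MEKi 2 and vehicle 1 in 2 of 9. These 4 differences share arrays and carry no test.

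**Figure D3:**
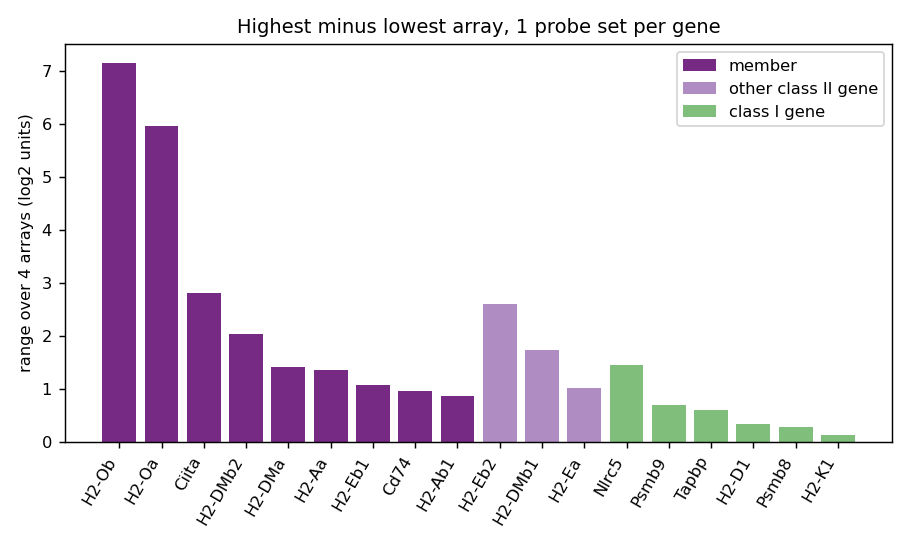
Highest minus lowest array in log2 units (vertical axis, from 0) for 1 probe set per gene, with members, other class II genes and class I genes in separate colours. H2-Ob and H2-Oa stand at 7.16 and 5.96, and H2-Ab1 at 0.86.

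Other class II genes also read lowest in MEKi 2, though for H2-Eb2 this rests on readings near the floor. H2-Ea, the α chain of I-E, which is a pseudogene in the C57BL/6J reference and is functional in Balb/c mice, read 13.37 in MEKi 1 and 12.35 in MEKi 2, against 12.77 in vehicle 1 and 13.28 in vehicle 2. H2-Eb2 read 6.35 in MEKi 1 and 3.83 in MEKi 2, against 4.39 in vehicle 1 and 6.44 in vehicle 2. Together with H2-DMb1, 0 of 3 passed by label.

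Some cell type markers were high in the same arrays as the class II genes, to different extents, and others were not. B cell markers had a median of 9.73 in MEKi 1 and 4.18 in MEKi 2, against 4.17 in vehicle 1 and 9.50 in vehicle 2, over 10 of 12 listed genes. All 10 were higher in MEKi 1 than in MEKi 2 and higher in vehicle 2 than in vehicle 1, and their summed level (log2 of the summed linear values) lay between 9.54 and 14.40 in the MEKi arrays and between 10.23 and 13.97 in the vehicle arrays. Cd79b, a signaling chain of the B-cell receptor, read 12.36 in MEKi 1 and 4.82 in MEKi 2, against 5.10 in vehicle 1 and 11.97 in vehicle 2, and Cd22, a B cell lectin, read 12.68, 7.81, 8.82 and 12.12 in that order. Cd72, another B cell lectin, stayed far from the floor and ranged over 2.20 log2 units, at 10.73, 8.53, 9.22 and 10.50. Ms4a1, which encodes CD20, was near the floor in MEKi 2 (3.97) and vehicle 1 (4.15). Pax5, the B lineage factor, read at most 4.72 in any array and so stayed near the floor throughout. Whether its probe set detects the transcript was not tested. H2-Ob and H2-Oa were near the floor in the same arrays as Ms4a1. This was not particular to B cell markers, as Glycam1, a gene of high endothelium, read 3.50 in MEKi 2 and 3.73 in vehicle 1. It read 12.27 in MEKi 1 and 12.05 in vehicle 2. The part of B cells in the class II values was not tested.

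Macrophage and monocyte markers ran another way. Their median was 9.30 in MEKi 1 and 9.95 in MEKi 2, against 10.72 in vehicle 1 and 9.64 in vehicle 2 over 13 of 13 genes, with 11 lowest in MEKi 1 and 12 highest in vehicle 1. Their summed level lay between 13.51 and 14.31 in the MEKi arrays and between 14.09 and 15.06 in the vehicle arrays. C1qa and C1qc, complement genes of tissue macrophages, read 11.33 and 11.02 in MEKi 1 and 12.57 and 12.48 in vehicle 1. MEKi 1 was lowest for most macrophage markers and highest for most class II probe sets. The part of macrophages in the class II values was not tested.

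Conventional dendritic cell markers had a median of 7.77 in MEKi 1 and 5.11 in MEKi 2, against 5.92 in vehicle 1 and 7.26 in vehicle 2, over 9 of 10 genes, and 7 of 9 were lowest in MEKi 2. Their summed level lay between 9.90 and 10.93 in the MEKi arrays and between 11.13 and 11.20 in the vehicle arrays. That sum leans on the brightest genes, and Clec10a was the brightest of the 9 in both vehicle arrays. Gene by gene, 5 of 9 were higher in MEKi 1 than in vehicle 1. Both MEKi arrays lay below both vehicle arrays in 3 of 9 (9.86% of all probe sets). The part of dendritic cells in the class II values was not tested. Itgax, which encodes CD11c, read between 8.49 and 8.94 in the 4 arrays, and Clec10a, a lectin of dendritic cells and macrophages, between 7.80 and 10.22. Of 5 plasmacytoid dendritic cell genes 3 were measured, among them Ly6d (8.09 in MEKi 1 and 4.61 in MEKi 2) and Tcf4 (9.63 and 10.63), a transcription factor also made by other cells.

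T cell markers had a median of 10.95 in MEKi 1 and 5.67 in MEKi 2, against 7.00 in vehicle 1 and 10.87 in vehicle 2, over 8 of 9 genes, among them Cd3d (11.52, 6.02, 7.45 and 11.39) and Thy1 (10.93, 7.56, 9.89 and 10.98). Genes of lymph node stroma and high endothelium had a median of 10.08 in MEKi 1 and 4.10 in MEKi 2, against 4.65 in vehicle 1 and 10.57 in vehicle 2. Cxcl13, a B cell-attracting chemokine, read 12.02 in MEKi 1 and 4.38 in MEKi 2, whereas Fcna, a ficolin of macrophages, was highest in vehicle 1 (11.34). The part of these cells in the class II values was not tested.

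The pan-leukocyte gene Ptprc, which encodes CD45, read 13.06 in MEKi 1 and 11.12 in MEKi 2, against 11.62 in vehicle 1 and 12.89 in vehicle 2, and Cd53 read 12.81, 11.02, 11.72 and 12.65. Tumor epithelial markers were present in every array, with medians of 8.19 in MEKi 1 and 6.54 in MEKi 2, against 8.79 in vehicle 1 and 8.50 in vehicle 2. Krt8 and Krt18, keratins of simple epithelium, were lowest in MEKi 1, at 10.54 and 10.43. Of the 9 markers 4 were lowest in MEKi 1 and 5 in MEKi 2, among them Krt19 (8.91 in MEKi 1 and 4.52 in MEKi 2) and the adhesion gene Epcam (9.06 and 6.54). Each was thus lowest in a MEKi array. In 5 of the 9 both MEKi arrays lay below both vehicle arrays (9.86% of all probe sets). Their median log2 fold change by label was −1.10, and 0 of 9 passed with limma. Reference genes had medians between 13.22 and 13.40, with Actb between 13.54 and 13.64 and Eef1a1 between 13.77 and 13.87. Hprt was the exception among the 6, with a range of 1.04 log2 units, from 10.39 in MEKi 2 to 11.42 in MEKi 1.

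**Figure D4:**
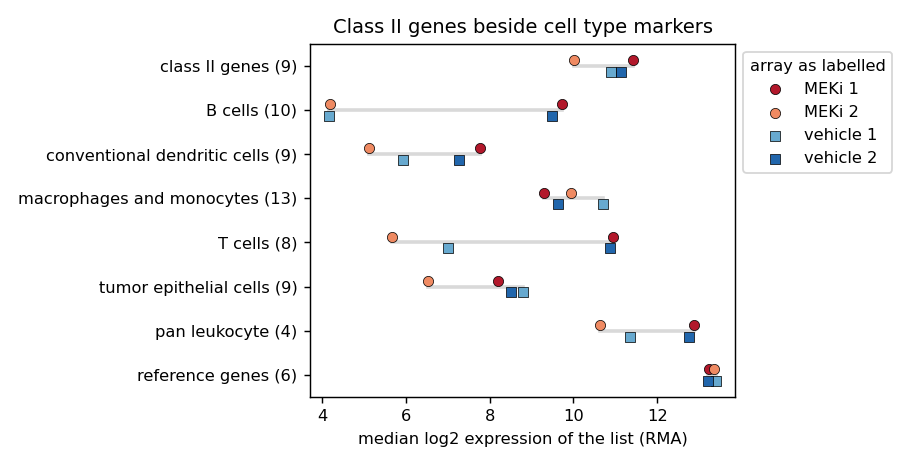
Median log2 expression (RMA, horizontal axis) of the class II genes, cell type marker lists and reference genes by array (MEKi circles, vehicle squares). Parentheses hold how many genes of a list were measured. B cell markers spread from 4.17 to 9.73, and reference genes lie between 13.22 and 13.40.

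Components of the complex on the X and Y boxes, listed with coactivators, differed between the arrays to unequal extents. Of 11 listed genes 10 were measured, with a median range of 0.55 log2 units, against 1.41 for the 9 class II genes and 0.51 for all probe sets. Rfx5, a subunit of the X box factor RFX, read 10.07 in MEKi 1 and 9.28 in MEKi 2, against 9.47 in vehicle 1 and 9.79 in vehicle 2. It ranged over 0.79 log2 units, and the RFX genes Rfxap and Rfxank over 0.80 and 1.05. These lie near the smaller class II ranges, such as 0.86 for H2-Ab1 and 1.08 for H2-Eb1. Atf1, a factor of the CREB family, lay between 10.16 and 10.36, and Kat2b, an acetyltransferase coactivator, between 9.81 and 10.62. By label 0 of 10 passed with limma, and their median log2 fold change was 0.08.

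Genes of the interferon-γ route to Ciita were mixed. Of 9 measured, 5 were highest in MEKi 1, 3 in vehicle 1 and 7 lowest in MEKi 2. Irf1, an interferon-induced activator of Ciita, read 11.26 in MEKi 1 and 10.64 in MEKi 2, against 11.28 in vehicle 1 and 11.09 in vehicle 2. The kinase gene Jak1 read 11.20, 9.73, 10.18 and 10.91 in the same order of arrays, while Jak2 was highest in vehicle 1 (10.83). By label 0 of 9 passed with limma and the median log2 fold change was −0.08.

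Lineage factors that act at the Ciita promoters spread further, with a median range of 2.15 log2 units over 7 genes. Among the 7, Pax5 stayed near the floor in every array. Irf4, a factor of lymphocytes and plasma cells, read 9.89 in MEKi 1 and 4.78 in MEKi 2, against 5.92 in vehicle 1 and 9.96 in vehicle 2. Ebf1, an early B cell factor also made by stromal cells, read 8.66 in MEKi 1 and 4.68 in MEKi 2, against 6.30 in vehicle 1 and 8.17 in vehicle 2. Irf8, a factor of B cells, dendritic cells and monocytes, read 11.42, 9.20, 10.18 and 11.33 in that order. Spi1, which encodes PU.1, lay between 8.81 and 9.31, and Prdm1, which represses Ciita in plasma cells, between 7.08 and 8.17. None of these 7 genes passed with limma.

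Most endosomal proteases and related genes did not share the order of the class II genes. Of 9 genes measured, 6 were lowest in MEKi 1 and 4 highest in vehicle 1, with a median range of 0.54. Ctsl, a cysteine protease, read 12.23 in MEKi 1 and 13.20 in MEKi 2, against 13.20 in vehicle 1 and 12.36 in vehicle 2. Ctss, the protease that trims the invariant chain in B cells and dendritic cells, read 12.56, 12.39, 12.93 and 12.66 in that order, and Ctsb lay between 12.78 and 13.27. Ifi30, a thiol reductase of the class II route that is itself induced by interferon-γ, followed the class II order instead, at 12.09 in MEKi 1 and 10.89 in MEKi 2, against 11.42 in vehicle 1 and 11.85 in vehicle 2. So did the protease Ctsh, at 11.61 in MEKi 1 and 11.11 in MEKi 2, against 11.38 in vehicle 1 and 11.46 in vehicle 2. By label 0 of 9 passed with limma.

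Of the genes that act on class II at the cell surface, Cd83, which keeps class II from being removed, read 11.79 in MEKi 1 and 8.58 in MEKi 2, against 9.02 in vehicle 1 and 11.44 in vehicle 2. Marchf1, the ubiquitin ligase that removes class II and that Cd83 opposes, read 9.11, 7.50, 7.99 and 8.85 in that order, so both were highest in MEKi 1 and lowest in MEKi 2. Among the tetraspanins, Cd37, which is abundant on B cells, read 10.60 in MEKi 1 and 4.99 in MEKi 2, against 6.39 in vehicle 1 and 10.38 in vehicle 2. Cd9 was lowest in MEKi 1 (10.72) and highest in vehicle 1 (12.46), and Cd82 lay between 10.56 and 11.07. By label 0 of 6 genes passed with limma. In each of these regulator and accessory lists, 0 genes had an unadjusted p under 0.05 by limma.

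**Figure D5:**
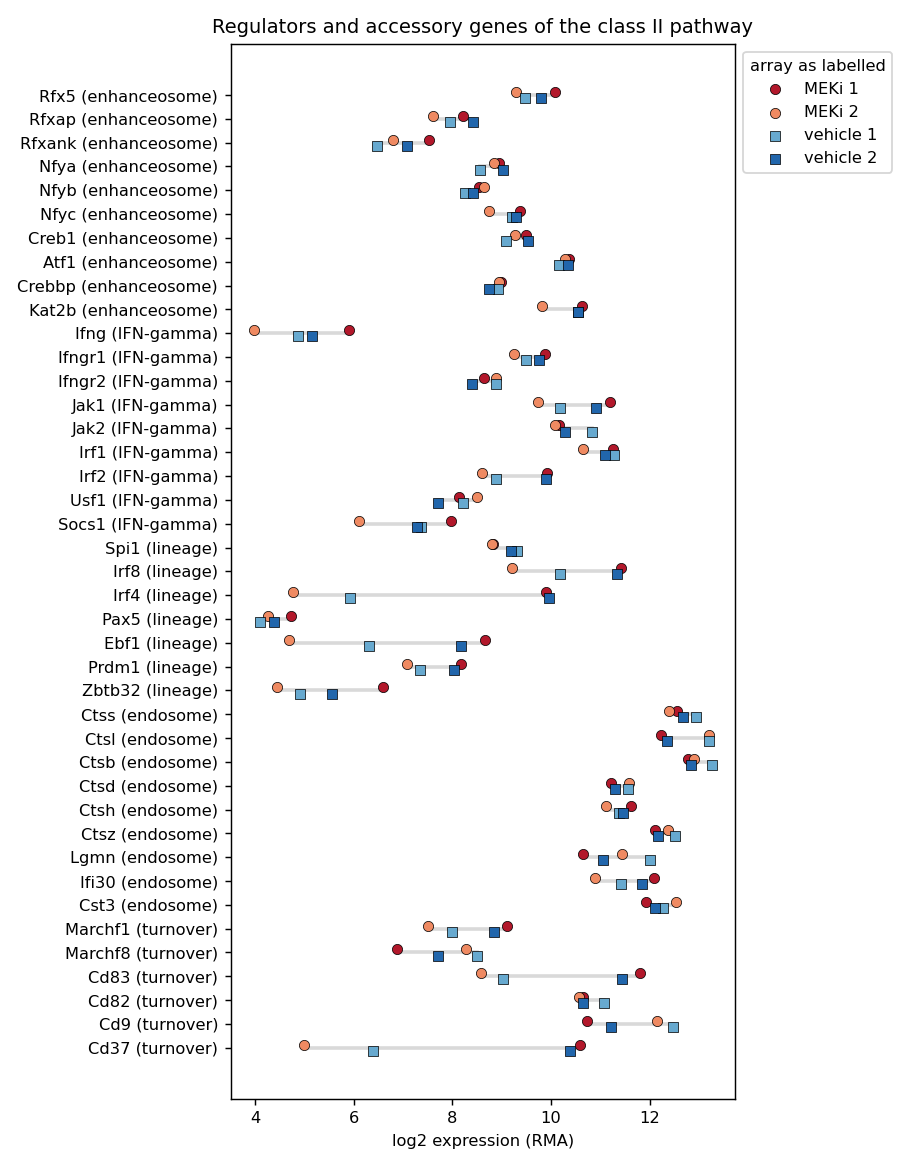
Log2 expression (RMA, horizontal axis) of regulators and accessory genes of the class II route by array (MEKi circles, vehicle squares), with the gene list in parentheses. Irf4, Ebf1, Cd83 and Cd37 are spread over more than 3 log2 units, from 3.21 for Cd83 to 5.60 for Cd37, and Atf1 over 0.20.

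Genes with the most similar profile were ranked for each class II gene by the root-mean-square distance between log2 values centred on their own mean, over the 4 arrays and 4335 genes with a range above 1. H2-Ab1 and Cd74 themselves ranged over less than 1, so that genes with as small a range were not among their candidates. The nearest to H2-Oa was Blk, a kinase of the B-cell receptor, at 0.077 log2 units, followed by Gm11346 (0.180) and Cr2, the complement receptor of B cells (0.25). For H2-Ob it was Pou2af1, a B cell coactivator (0.218), followed by Cd79b (0.224) and Eaf2 (0.327). Ciita was nearest to Dclk1 (0.051) and Lpxn (0.053), H2-DMa to Themis2, a signaling adaptor of B cells and macrophages (0.023), and H2-DMb2 to Lmo2 (0.081). The peptide-binding chains and Cd74 were nearest to genes of various kinds, with Nfatc1 for H2-Aa (0.046), Hprt for H2-Ab1 (0.063), Reep5 for H2-Eb1 (0.016) and Ccdc71l for Cd74 (0.029). With 4 arrays such distances describe these arrays only.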

How the data were processed

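Affymetrix Mouse 430PM arrays were read from 4T1Ch9 tumors, 2 labelled MEKi and 2 labelled vehicle. Expression on a log2 scale, computed with RMA, is what the authors deposited for every probe set of each array. Their methods name the AFFY package in R and quantile normalization, and versions of RMA and AFFY are not given in the sources used here. RMA draws the arrays to a common distribution, which can narrow differences. Scanner files were not used here. Of 45141 probe sets, 104 controls were left out. Of the 45037 tested, 28898 have 1 symbol, 551 have several and 15588 are unnamed here. The brightest probe set over the 4 arrays stood for a gene.

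Probe sets went into limma 3.58.1 (R 4.3.3; lmFit and eBayes, two-sided), grouped by label, with Benjamini-Hochberg adjustment over all of them. A call needed p under 0.05, a fold change over 1.5 and adjusted p under 0.1. Simulated data that kept the within-label spread gave calls for 0% of 200 probe sets shifted by 2 log2 units and for 68.5% of 200 shifted by 4. The number of arrays limits the precision.

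The genes and gene lists were chosen with earlier results of these data known. Named genes were every member, the 3 brightest genes of each pathway list and those ranging over 3 log2 units, the 2 brightest of each marker list, and the genes nearest in profile. H2-Ea, H2-Eb2, Rfx5, Ifi30, Marchf1, Nlrc5, Ms4a1 and Pax5, where outside this rule, were chosen after their values were seen. So were Rfxap, Rfxank, Ctsh, Krt19, Epcam and Glycam1. Listed genes beyond those counted as measured were not analysed here. Alternative settings used an intensity trend, adjusted p under 0.05, no probe sets of the dimmest 25%, arrays centred on 6 reference genes or on their median, a block for the replicate number, 1 array fewer at a time, and gene means over all probe sets. Python 3.11.15 with pandas 2.3.3, numpy 2.4.6 and matplotlib 3.10.9 made tables and figures.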

Additional observations from a re-analysis of the deposited data

How the results depend on the processing

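No probe set of a class II gene, and none of any gene, was called under the adjusted p of 0.05, the intensity trend, the filter on dim probe sets, either centring, the replicate block, the mean of all probe sets or any array left out (0 in each). At an unadjusted p under 0.05 by limma these settings gave between 80 and 2027 probe sets (or genes, for the mean), of which 2 were members without MEKi 1 and 0 under every other setting. With the mean of all probe sets, 17097 genes were tested. The replicate numbers did not pair the arrays. The differences between MEKi 1 and MEKi 2 and between vehicle 1 and vehicle 2 had r = −0.764 across probe sets, and a crossed pairing, chosen after seeing the data, also gave 0 calls. Under the replicate block the median of the 18 probe sets was −0.19, as without it. H2-Aa turned to 0.0084 when centred on reference genes and to 0.025 when centred on the array median. These were the 2 of 54 values of single genes that changed sign with all 4 arrays in the fit, and 52 kept it. The trend, the dim filter and the balanced block leave every fold change as it is, so their values could not change sign. The same holds for the gene mean of H2-Eb1, H2-Oa and Cd74, which have 1 probe set each. Much of this agreement was therefore fixed in advance.

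Signs by label rested on single arrays, and 15 of 36 values turned when 1 array was left out, with an adjusted p of at least 0.956. Over these fits the log2 fold change ran from −0.71 to 0.64 for H2-Aa, −0.71 to 0.15 for H2-Ab1, −0.74 to 0.34 for H2-Eb1, −1.0 to 0.41 for H2-DMa, −1.09 to 0.96 for H2-DMb2, −2.36 to 3.2 for H2-Oa, −3.37 to 3.68 for H2-Ob, −0.75 to 0.19 for Cd74 and −1.58 to 1.24 for Ciita, and the median of the 18 probe sets from −0.91 (without MEKi 1) to 0.58 (without MEKi 2). Leaving out 1 array leaves a lone array that is assumed to vary like the other group. H2-Ob and H2-Oa had 1 reading near the floor in each group, so their differences by label are not bounds.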

Other observations

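Class I genes, read for comparison, lay closer together than the class II genes in these arrays, with a median range of 0.46 log2 units over 6 of 9 genes against 1.41, and the part of the upper limit of the arrays was not tested. H2-K1, a class I heavy chain, lay between 13.18 and 13.31 in the 4 arrays, H2-D1 between 12.58 and 12.91, and Tapbp, which encodes tapasin of the peptide-loading complex, between 11.96 and 12.55. Nlrc5, the class I counterpart of Ciita, read 10.52 in MEKi 1 and 9.06 in MEKi 2, against 9.93 in vehicle 1 and 10.32 in vehicle 2, in the order of arrays seen for Ciita over a range of 1.46 against 2.82. By label 0 of the 6 passed with limma.

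Genes of class II recognition by T cells were high in the same arrays as the DO chains. Cd4, the coreceptor that binds class II, read 7.45 in MEKi 1 and 5.10 in MEKi 2, against 5.72 in vehicle 1 and 8.42 in vehicle 2. Lag3, an inhibitory receptor that also binds class II, read 7.63, 6.27, 5.90 and 7.13 in that order, and Cd3e read 10.11, 6.03, 6.72 and 9.88. By label 0 of 3 passed with limma.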
